A study of Homo sapiens with 6 samples.

Results

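Protein-coding genes that were almost without reads in control AC16 cells, and had reads in every treated library, are described here. Members were chosen by their raw counts in both groups. A gene was taken when its counts summed to 3 or fewer over the 3 control libraries and reached 20 or more in each of the 3 treated libraries. Symbols starting with COL, ADAM, KIF, ZNF, MMP or IL were left out, which removed COL2A1 alone (1, 0 and 0 counts in controls, 38, 36 and 30 in treated libraries). The rule found 33 of 19850 protein-coding genes in a table of 58299 genes. Since the rule used the counts of both groups, the rise of these 33 genes is a description and carries no test.

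AC16 is an immortalised human line derived from a fusion of ventricular heart muscle cells with transformed fibroblasts. Poly(A) RNA was sequenced without strand information. Cells of the 3 control libraries had 0.1% DMSO for 72 h. Those of the 3 treated libraries had 100 nM CDDO-Me for 24 h and then 100 nM doxorubicin for 48 h, 72 h in total. The labels leave unclear if treated cells also had DMSO and if CDDO-Me was removed before doxorubicin was added. CDDO-Me (bardoxolone methyl) is a triterpenoid that modifies KEAP1 and releases the transcription factor NRF2, and doxorubicin, an anthracycline, causes DNA breaks by blocking topoisomerase II. Libraries of either drug alone were not analysed here, so no value below can be assigned to CDDO-Me or to doxorubicin. The labels do not say that replicates were separate cultures, so the spread behind each p-value is that between these libraries and may be technical only.

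The libraries held 17150259 to 20193957 counts. Of 14 heart muscle markers, 9 had 3 or fewer counts over the controls, among them MYH6, MYH7, MYL2, ACTN2 and NKX2-5, and TNNI3 was at 0 in every library. The 14 markers summed to 26.3 to 28.8 CPM (TMM-normalised) in controls and 25.9 to 31.5 in treated libraries. GATA4 (347, 300 and 290 control counts) and TTN (132, 144 and 176) gave most of this sum. NPPB had 18, 10 and 13 counts in controls and 3, 0 and 0 in treated libraries. The 10 fibroblast markers summed to 15352 to 16779 CPM in controls and 5782 to 6216 in treated libraries, and all 10 fell (edgeR's quasi-likelihood test, Benjamini-Hochberg adjusted p below 0.05, the call rule used throughout). Of the 3 heart muscle markers tested, 1 rose and 2 fell. Across all genes, 63.5% of those tested were called, 32.3% higher and 31.2% lower. Increases made up 50.8% of the calls with TMM scaling and 63.8% with total-count scaling.

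As background, most tissue-restricted genes are held silent by a lack of their activators, by closed chromatin and, at many promoters, by DNA methylation. Their promoters are often poor in CpG dinucleotides and rich in TATA boxes, whereas housekeeping promoters tend to lie in CpG islands. The tumour suppressor p53, which DNA damage stabilises, binds near many genes and raises their transcription.

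RefSeq promoter windows (GRCh38.p14, 250 bases before to 50 after each gene's start) were found for 26 of the 33 genes. ENSG00000285188, CSF3, FERMT1, LRATD2, LRP1B, NEFL and VSIG1 had none. The letters TATAAA, searched on both strands, stood in 6 of the 26 windows (23.1%), in 9.63% of 15843 protein-coding windows and in 19.5% of 3810 windows of other coding genes with 3 or fewer control counts. In 4 of the 26, TATAAA lay on the gene's strand and began 29 or 30 bases before the start, the usual place of a TATA box. The share with TATAAA beginning 35 to 25 bases before the start, a position looked at after the matches were seen, was 15.4% for the 26 windows. It was 3.56% for all protein-coding windows and 8.27% for the other near-silent genes. These 4 are shown as the 80 bases before the start, 5′ to 3′ on the gene's strand, because they carry the sequence feature that several of the 33 genes had in the same place. Capitals mark TATAAA and, in PADI4, also TGACTCA, the letters of an AP-1 site, which began 54 bases before the start. The windows are chr1:17308117-17308196 (plus strand) for PADI4, chr17:41098143-41098222 (minus) for KRTAP4-8, chr3:191199161-191199240 (plus) for OSTN and chr2:75199521-75199600 (minus) for TACR1.
PADI4: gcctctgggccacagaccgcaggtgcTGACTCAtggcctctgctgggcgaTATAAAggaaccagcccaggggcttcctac
KRTAP4-8: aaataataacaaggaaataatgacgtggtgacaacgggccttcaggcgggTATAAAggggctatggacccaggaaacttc
OSTN: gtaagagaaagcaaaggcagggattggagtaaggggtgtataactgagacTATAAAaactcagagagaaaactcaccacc
TACR1: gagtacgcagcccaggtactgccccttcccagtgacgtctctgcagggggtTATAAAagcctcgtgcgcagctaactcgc

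The CpG content of the 26 windows lay nearer to that of other near-silent genes than to that of tested genes. The median ratio of observed to expected CpG was 0.489 for the 26 windows, 0.837 for 10602 windows of tested genes and 0.314 for the other near-silent genes. A ratio under 0.6 was found in 16 of the 26 (61.5%), against 34.2% of all protein-coding windows and 71.4% of the other near-silent ones. TGACTCA, read on both strands and so the same search as TGAGTCA, stood in 1 of the 26 (3.85%), that of PADI4, and in 3.66% of all windows. TGACNNNGC, the core of the antioxidant response element that NRF2 binds, stood in 4 of the 26 (15.4%, in NSG1, PADI4, SCN7A and UNC13A) and in 14.3% of all windows. CACGTG stood in 1 (3.85%, UNC13A) and in 8.88% of all windows. The p53 consensus, 2 adjoining decamers with at most 2 mismatches, matched 1 of the 26 (3.85%, DOCK8, after the gene's start) and 0.518% of all windows. Each match is a description of letters in this window, and a RefSeq start need not be the start used in these cells.

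Reads appeared at many genes that were near-silent in the controls, mostly at a low level, and the 33 genes are the upper end of this range. Of 19850 protein-coding genes, 5584 had 3 or fewer counts over the controls. In the treated libraries 1727 of these had at least 1 count in each library, 371 had at least 5, 108 at least 10 and 34 at least 20 (the 33 genes and COL2A1). In the opposite direction the numbers were far smaller. Of 3239 coding genes with 3 or fewer counts over the treated libraries, 41 had at least 1 count in each control, 1 had at least 5 (NPPB, whose lowest control count was 10), and 0 had at least 20. Each treated library was deeper than the deepest control, at 19732013 to 20193957 counts against 17150259 to 19387496. In bulk samples, more cells with a transcript and more RNA per cell cannot be told apart, and this holds for every value below.

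**Figure D1:**
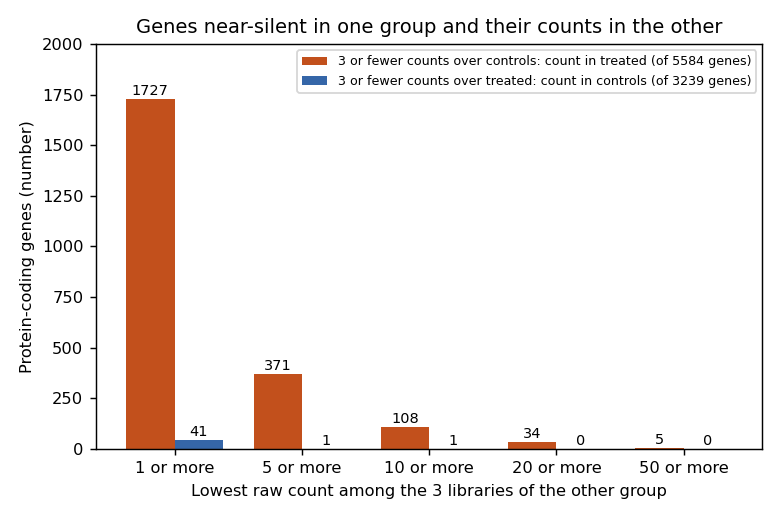
Number of protein-coding genes (vertical axis) by their lowest raw count among the 3 libraries of the other group (horizontal axis), for 5584 genes with 3 or fewer counts over the controls (orange) and 3239 with 3 or fewer over the treated libraries (blue). The bars at 1 or more stand at 1727 and 41, and those at 20 or more at 34 and 0.

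A low-level rise was also seen in genes that are silent in most tissues. The 389 olfactory receptor genes, which are expressed in the nose, summed to 95, 73 and 87 counts in the controls and 242, 232 and 297 in the treated libraries. The number of them with a count was 18, 16 and 18 in the controls and 88, 70 and 87 in the treated libraries. The largest count of a single one, OR51B4 or OR51B5, was 21, 27 and 29 in the controls and 18, 19 and 26 in the treated libraries. The set of 389 genes was looked at after the counts of the 33 genes were known, and its part in the result was not tested. Per kilobase of exon, the olfactory receptor genes stood at 0.253 to 0.324 counts in the treated libraries, and the lowest of the 33 genes at 1.45 to 1.67. The minimum of 20 counts in each treated library sets a floor for the 33 genes, so this gap follows from the rule. None of the 389 had 20 or more counts in each treated library.

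In the treated libraries the 33 genes together had 1598, 1681 and 1587 counts, against 16, 14 and 18 in the controls. As levels this was 77.0, 82.7 and 74.9 CPM against 0.919, 0.846 and 0.975. PADI4 alone gave 20.1% of their treated counts. Their mean treated level ran from 1.01 CPM (DOCK8) over a median of 1.76 to 15.7 (PADI4), and 21 of the 33 stayed under 2 CPM. In the controls 9 genes had no count, 7 had 1, 10 had 2 and 7 had 3, and the largest count in any control library was 2. All 33 passed the filter on low counts, as their treated counts made certain.

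**Figure D2:**
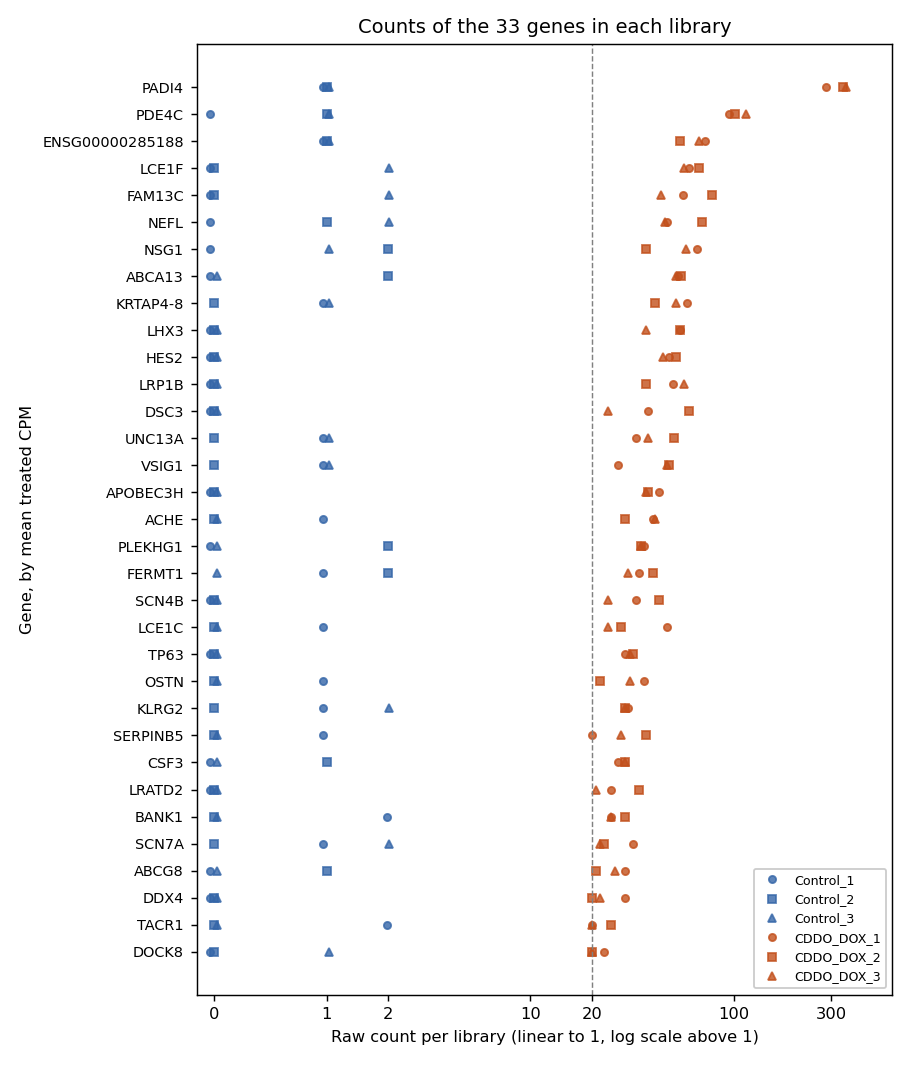
Raw count (horizontal axis, linear to 1 and logarithmic above) of each of the 33 genes in each library, ordered by mean treated level; blue points are the 3 controls, orange points the 3 treated libraries, and the dashed line marks 20 counts. PADI4 stands apart at 282 to 353 counts, and every other gene lies between 20 and 115 in the treated libraries.

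Order changed when levels were set per kilobase of exon, the scale on which levels of different genes can be compared. LCE1F, with 357 bases of exon in the annotation used for the counts, stood highest at 8.29 ± 0.87 CPM per kilobase (SD, n = 3). The RefSeq start of LCE1F lies upstream of these bases, so they may be only part of its transcript. Next came PADI4 (5.28 ± 0.61), LCE1C (2.30 ± 0.86), KRTAP4-8 (2.10 ± 0.36) and APOBEC3H (1.52 ± 0.13). LCE1C and KRTAP4-8 differed by less than their spread between libraries. The other 28 genes lay between 0.0734 (DOCK8) and 0.762 CPM per kilobase (PDE4C). The median exon length of the 33 genes was 5359 bases, against 5145 for tested coding genes and 2413 for the other near-silent ones, and a longer gene reaches 20 counts at a lower level.

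The enzymes that act on chromatin, RNA or DNA include the gene with the most counts of the set. PADI4, a peptidyl-arginine deiminase that converts arginine to citrulline in histones and other proteins (ENSG00000159339, GRCh38 chromosome 1, 17308195 to 17364004), had 1 count in each control and 282, 342 and 353 in the treated libraries. Its level was 15.7 ± 1.83 CPM (SD, n = 3), and the ratio of summed counts was 274 with a 95% counting interval of 93.5 to 1332. Such intervals are exact binomial ones and cover counting error only. APOBEC3H, a cytidine deaminase that restricts retroviruses (chromosome 22, 39097224 to 39104067), had no count in the controls and 43, 38 and 37 in the treated libraries. Where the controls had no count, the ratio was taken against a floor of 3 counts over the group, so APOBEC3H was at least 33.1-fold higher, with a lower limit of 11.1. DDX4 (VASA), an RNA helicase of germ cells, had no control count and 29, 20 and 22 treated counts. Of 11 other germ cell markers, DAZL (11, 9 and 7 treated counts), TEX11 (7, 11 and 3), SYCP1 (2, 6 and 4) and MAEL (5, 1 and 6) also had no control count, and PIWIL1, CTAG1B and PRM1 were at 0 in every library. The list with DDX4 summed to 0.363 to 0.487 CPM in controls and 3.05 to 3.61 in treated libraries. DDX4 itself, at a treated mean of 1.14 CPM, was chosen by the rule, so part of this rise follows from the rule. ACRV1, the only other marker tested, had 7, 6 and 9 against 19, 13 and 18 counts and was not called. The part of the other germ cell markers in the value of DDX4 was not tested.

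All 3 transcription factor genes had no count in any control. HES2, a helix-loop-helix repressor of the hairy and enhancer of split family (chromosome 1, 6412418 to 6424670), had 48, 52 and 45 counts in the treated libraries, at least 40.7-fold higher. LHX3, a LIM homeodomain factor of the pituitary and motor neurons (chromosome 9, 136196250 to 136205128), had 54, 54 and 37. TP63, which encodes p63, the p53 relative that specifies stratified epithelium (chromosome 3, 189631416 to 189897279), had 29, 32 and 31, at least 25.8-fold higher with a lower limit of 8.56. Its treated libraries lay close together, with a coefficient of variation of 6.08%. Its relative TP73 rose from 122, 97 and 120 counts to 208, 162 and 224 (log2 change 0.56, SE 0.14, edgeR adjusted p = 3.63e-04).

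Genes of skin and other epithelia made up 7 of the 33, with treated levels of 1.37 to 2.96 CPM. LCE1F and LCE1C encode late cornified envelope proteins, which are cross-linked into the outer layer of the epidermis. LCE1F (chromosome 1, 152776372 to 152776728, a single exon in the annotation used for the counts) had 0, 0 and 2 counts in controls and 60, 67 and 57 in treated libraries. Its RefSeq promoter window (152774890 to 152775189) lies upstream of that exon. LCE1C had 1, 0 and 0 against 47, 28 and 24, and treated replicate 1 was the high one. These genes lie 28.1 kb apart in the epidermal differentiation complex. KRTAP4-8, a keratin-associated protein of the hair shaft (chromosome 17, 41096981 to 41098141), had 1, 0 and 1 against 59, 41 and 52. LCE and KRTAP genes have close copies: 22.6% of the 50-base words in LCE1C transcripts, 5.19% of those in LCE1F and 17.7% of those in KRTAP4-8 also occur in transcripts of another gene, so reads could be split between copies.

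DSC3, a desmosomal cadherin that joins keratinocytes (chromosome 18, 30990008 to 31042815), had no control count and 38, 60 and 24 treated counts, the widest treated spread of the 33 genes (coefficient of variation 46.6%). SERPINB5 (maspin), an epithelial serpin, had 1, 0 and 0 control counts and 20, 37 and 28 treated counts. FERMT1 (kindlin-1), which activates integrins in keratinocytes, had 1, 2 and 0 against 34, 40 and 30. VSIG1, a junctional adhesion protein of gastric epithelium, had 1, 0 and 1 against 27, 48 and 47. The 14 markers, TP63 among them, summed to 241 to 254 CPM in controls and 247 to 261 in treated libraries. Of 10 tested genes other than TP63, 4 rose and 1 fell, where 32.3% of all tested genes rose and 31.2% fell. SFN, the epithelial 14-3-3 protein, rose from 21, 16 and 10 to 276, 318 and 289 counts (log2 change 3.97), and the desmosomal DSP rose by 1.66 on the log2 scale. The basal keratin gene KRT14 rose from 23, 27 and 27 to 67, 97 and 95 counts. CLDN4 rose by 1.22, a call lost without treated replicate 1 (edgeR adjusted p = 0.0628). KRT18, with 2852 to 3560 counts a library, gave most of the summed level and fell (log2 change -0.14). That call was lost with total-count scaling (edgeR adjusted p = 0.815) and without control replicate 1 or treated replicate 3. The other tested markers were not called: EPCAM (log2 change -0.45), CLDN7 (-0.65), KRT8 (-0.11), CDH1 (0.33) and KRT19 (0.17). Near-silent in the controls were KRT5 (5, 0 and 12 treated counts), GRHL2 (11, 11 and 10) and ESRP1 (6, 12 and 23). The part of these epithelial markers in the values of the 7 genes was not tested.

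Genes known from nerve cells and excitable membranes made up another 7, with treated levels of 1.05 to 2.63 CPM. NEFL, the light neurofilament subunit (chromosome 8), had 0, 1 and 2 control counts and 47, 70 and 46 treated counts. NSG1, an endosomal protein of neurons, had 0, 2 and 1 against 66, 37 and 58, with treated replicate 2 the lowest. UNC13A, which primes synaptic vesicles for release, had 1, 0 and 1 against 33, 51 and 38. ACHE, acetylcholinesterase, which ends signalling at cholinergic synapses, had 1, 0 and 0 against 40, 29 and 41. TACR1, the receptor of substance P, had 2, 0 and 0 against 20, 25 and 20. The 11 neuronal markers, NEFL among them, summed to 39.1 to 46.1 CPM in controls and 39.9 to 40.8 in treated libraries. SYT1, SNAP25 and MAP2 gave most of this sum. Of 5 others tested, 1 rose and 1 fell, where 32.3% of all tested genes rose and 31.2% fell. Near-silent in the controls were STMN2 (9, 4 and 2 treated counts), ELAVL3 (9, 5 and 7), ELAVL4 (7, 5 and 2) and RBFOX3 (1, 1 and 5). The part of these neuronal markers in the values of the 7 genes was not tested.

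A pair of sodium channel genes belonged to this group. SCN4B encodes an auxiliary subunit that shapes the current of voltage-gated channels in heart and nerve, and had no control count and 33, 43 and 24 treated counts, at least 28.1-fold higher. SCN7A, a channel that senses extracellular sodium, had 1, 0 and 2 against 32, 23 and 22, a ratio of 21.6 (95% counting interval 7.12 to 107), the smallest ratio among genes with control counts.

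The signalling genes were led by a phosphodiesterase. PDE4C, which hydrolyses cyclic AMP (chromosome 19, 18208652 to 18248200), had 0, 1 and 1 control counts and 95, 101 and 115 treated counts, or 4.99 ± 0.43 CPM (SD, n = 3). The ratio was 131, with a 95% counting interval of 35.9 to 1086. ENSG00000285188, a coding gene model on the same strand, shares 77.4% of its exon bases with PDE4C, and had 1, 1 and 1 against 72, 54 and 67 counts. The treatment of reads in shared exons is not recorded in the labels or the file header, so the counts of this pair may come from the same transcripts. PLEKHG1 had 0, 2 and 0 against 36, 35 and 35, the narrowest treated spread of the set (coefficient of variation 2.63%). DOCK8, an exchange factor for CDC42 in leukocytes, had 0, 0 and 1 against 23, 20 and 20. BANK1, a B cell scaffold protein, had 2, 0 and 0 against 25, 29 and 25.

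The secreted factors were CSF3 and OSTN. CSF3, the cytokine G-CSF that drives neutrophil production (chromosome 17, 40015361 to 40017813), had 0, 1 and 0 counts in controls and 27, 29 and 29 in treated libraries. The ratio was 71.6 (95% counting interval 12.5 to 2859). OSTN (osteocrin), a hormone of muscle and bone, had 1, 0 and 0 against 36, 22 and 31. The 15 blood cell markers summed to 4.28 to 6.26 CPM in controls and 8.0 to 9.39 in treated libraries, and these ranges did not overlap. Of 6 tested markers 3 rose and 1 fell, where 32.3% of all tested genes rose and 31.2% fell. PTPRC, the leukocyte antigen CD45, rose from 22, 19 and 17 to 69, 80 and 89 counts, and ITGAM (14, 12 and 14 treated counts) and LYZ (11, 17 and 12) rose from no control count. ITGAM and LYZ passed the filter on low counts only through their treated libraries, so a fall could not have been called in them. CD68 (log2 change 0.83) and CD14 (-0.33) were not called. CSF1R fell (log2 change -0.71), a call lost with total-count scaling, in DESeq2, with the replicate block (edgeR adjusted p = 0.0562) and without control replicate 1 or 3 or treated replicate 1 or 2. TYROBP and GP9 were at 0 in every library. Their part in the values of CSF3, BANK1 and DOCK8 was not tested.

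Lipid transport and uptake genes were 3 long genes with low levels per kilobase, 0.120 to 0.135. ABCA13, a very large ABC transporter, had 0, 2 and 0 control counts and 53, 55 and 52 treated counts. ABCG8, which exports plant sterols and cholesterol together with ABCG5, had 0, 1 and 0 against 29, 21 and 26, while ABCG5 itself had no control count and 8, 4 and 3 treated counts. LRP1B, a large endocytic receptor of the LDL receptor family, had no control count and 50, 37 and 57 treated counts. It spans 1900 kb, the longest of the 33 genes. FAM13C had 0, 0 and 2 against 56, 78 and 44 counts, KLRG2 1, 0 and 2 against 30, 29 and 29, and LRATD2 none against 25, 34 and 21. FAM13C shares 23.8% of its exon bases with PHYHIPL on the other strand and LRATD2 21.5% with PCAT1, also on the other strand, and reads from these partners cannot be told apart without strand.

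The limits of the rule, which are set on raw counts, cut through a continuous range. Just inside the control limit, with 3 counts over the controls, stood 7 genes: PADI4, ENSG00000285188, NEFL, NSG1, FERMT1, KLRG2 and SCN7A. Just outside, with 4 control counts, were 8 genes. Among them were SULF2 (259, 235 and 246 treated counts), CSTA (150, 149 and 192), RET (81, 67 and 78), LRATD1 (78, 55 and 73) and FYB1 (52, 75 and 54), so several genes outside the rule had more treated counts than most inside it. At the treated limit, DOCK8, TACR1, DDX4 and SERPINB5 had a lowest count of 20 and ABCG8 of 21. PHYHIPL, SPHKAP, SUCNR1 and TFCP2L1 had a lowest count of 19 and LSAMP of 18, and 16 genes with 3 or fewer control counts lay at 15 to 19.

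Treated replicates of the 33 genes spread further than counting error alone in part of the set. Their coefficient of variation had a median of 16.6%, against 11.5% in 3809 other coding genes of the same range of mean counts. Of the 33, 29 had a mean treated count under 60, where counting error alone gives a wider spread. The 3809 genes were not matched to them within the range. A chi-square of the treated counts over its degrees of freedom had a median of 1.11 against 1.39 in those genes. Spread past the 95% limit of counting error, which counting error alone would give in 5% of genes, was found in 24.2% of the 33 and 23.3% of the others. The highest treated library was replicate 2 for 18 genes, replicate 1 for 12 and replicate 3 for 3.

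The genes next to the 33 were not used by the rule and were tested. Among them PHYHIPL shares exon bases with FAM13C (1609) and STX18 with NSG1 (91). Without strand these neighbours may carry reads of FAM13C and NSG1. The nearest tested coding gene on each side within 100 kb gave 38 different neighbours for 27 of the 33 genes. Of these, 26 (68.4%) were called, where 68.6% of all tested coding genes outside the 33 were, so the share called was at the background. Among them 17 (44.7%) rose and 9 (23.7%) fell, against backgrounds of 33.6% higher and 35.0% lower. At least 2-fold increases were called in 9 of the 38 and in 9.88% of all tested coding genes outside the 33. At least 2-fold decreases were called in 1 of the 38 and in 4.52% of those genes. Among the 9, PADI3, PHYHIPL, ESPN and NEFM passed the filter on low counts only through their treated libraries. A fall could not have been called in them, so the number of increases is not free of this filter. The median log2 change of the neighbours was 0.12, against 0.02 over all tested genes.

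The largest neighbour increases were in relatives or close partners of the gene beside them. PADI3, a deiminase of hair follicles that lies 24.0 kb from PADI4, rose from 6, 0 and 6 counts to 213, 211 and 181, or 0.223 ± 0.19 to 9.73 ± 1.03 CPM (n = 3; log2 change 5.37, SE 0.29, edgeR adjusted p = 3.15e-25). PHYHIPL, which overlaps FAM13C on the other strand and may carry its reads, had 0, 2 and 0 against 19, 32 and 29 counts (edgeR adjusted p = 8.74e-09). ESPN, an actin bundler of hair cells that begins 106 bases from HES2, had 2, 2 and 0 against 13, 26 and 26 (edgeR adjusted p = 9.50e-07). These values rest on few control counts: the log2 change of PHYHIPL was 4.85, and 7.66 without control replicate 2, and that of ESPN was 3.66, and 3.07 without control replicate 3. Also past 2-fold, and named after their values were seen, were NEFM, the middle neurofilament subunit beside NEFL (log2 change 3.07), IQCN beside PDE4C (2.53), UPP1 beside ABCA13 (1.78), KRTAP2-3 beside KRTAP4-8 (1.67), UTS2B beside OSTN (1.24) and APOBEC3G beside APOBEC3H (1.20). Of the neighbours that fell, the sodium channel gene SCN9A beside SCN7A fell most, from 526, 571 and 663 counts to 304, 290 and 316 (log2 change -1.20, SE 0.088, edgeR adjusted p = 7.38e-19). It was followed by COLGALT1 beside UNC13A (-0.68) and PPP3CA beside BANK1 (-0.63).

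**Figure D3:**
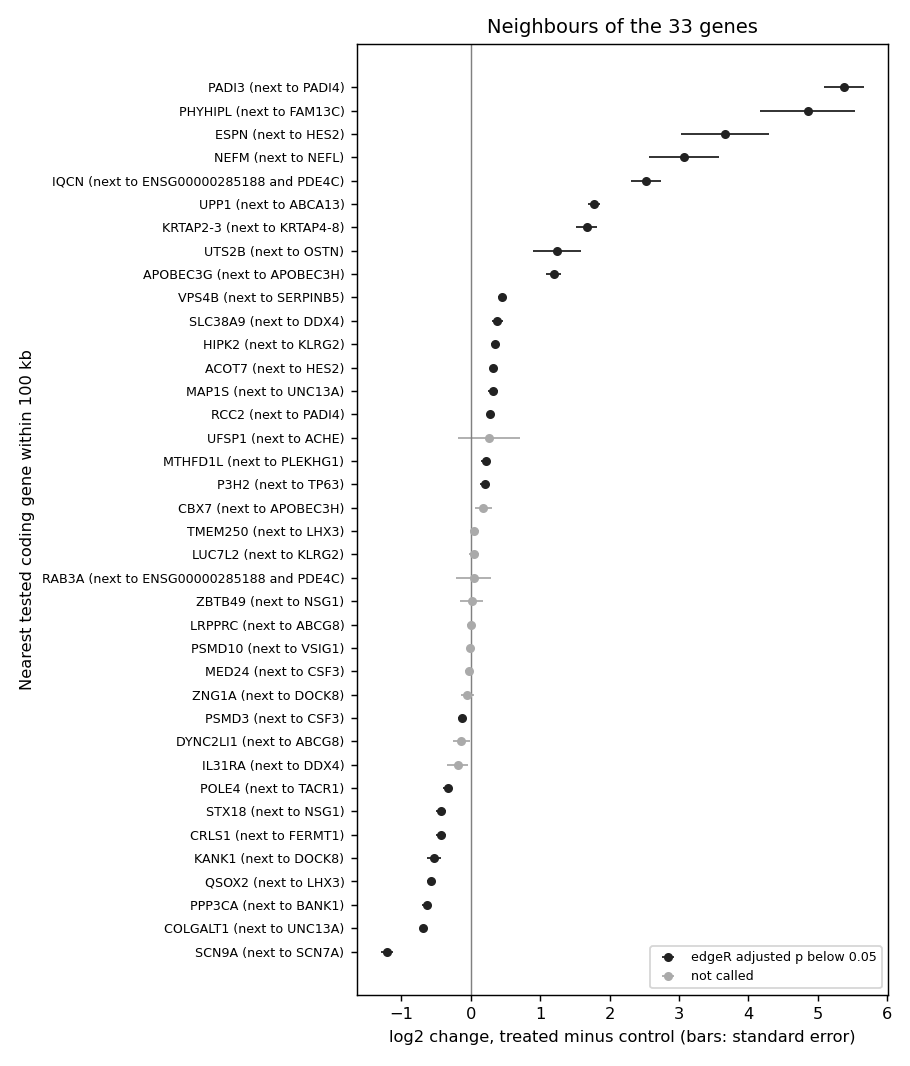
Log2 change (horizontal axis, treated minus control, bars are standard errors) of the 38 nearest tested coding genes within 100 kb of the 33 genes, each labelled with the gene it lies next to; black points were called by edgeR and grey points were not. The 3 largest increases, 5.37, 4.85 and 3.66, are those of PADI3, PHYHIPL and ESPN, and the largest decrease, -1.20, is that of SCN9A.

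Families, taken as coding genes with the same leading letters in their symbol, gave 137 tested relatives outside the 33. Of these, 59 (43.1%) rose and 45 (32.8%) fell, against the same backgrounds of 33.6% and 35.0%. Relatives such as HES7, SCN1A and LRATD1 passed the filter on low counts only through their treated libraries, and UNC5C, which fell, only through its controls. The direction of such genes was fixed by the filter. In the APOBEC and HES families all 4 tested relatives of each were called higher. The filter left out APOBEC1, APOBEC2, APOBEC3A, APOBEC3D, APOBEC4, HES3 and HES5. Of these, APOBEC3D had 8, 6 and 12 against 15, 9 and 9 counts, and APOBEC4 none against 3, 8 and 11. APOBEC1, HES3 and HES5 were at 0 in every library. HES7 rose from 5, 0 and 4 counts to 69, 41 and 63 (log2 change 3.97, SE 0.44), followed by HES1 (1.82), HES4 (1.22) and HES6 (1.17). APOBEC3C, the most abundant of its family and a listed p53 target, rose from 1672, 1589 and 1783 to 8286, 9809 and 9012 counts (log2 change 2.18, SE 0.054). APOBEC3F (1.04) and APOBEC3B (0.25) rose less, and the call on APOBEC3B was lost without control replicate 3 (edgeR adjusted p = 0.0534). In the ABCA family 8 of 9 tested relatives rose (7 without control replicate 3), most of all the cholesterol exporter ABCA1 (log2 change 4.22) and the keratinocyte lipid transporter ABCA12 (3.21).

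Other families were divided. In the PADI family PADI1 was not called (16, 21 and 10 against 11, 15 and 10 counts), and PADI6 had no control count and 2 counts in each treated library. Among sodium channel genes 3 of 7 tested relatives rose and 3 fell. SCN1A had no control count and 17, 19 and 19 treated counts, SCN3B rose by 3.88 (4.66 without control replicate 1) and SCN2A by 1.84 on the log2 scale, and SCN3A fell (log2 change -0.88) as did SCN9A. SCN8A also fell (-0.24), but its call was lost with total-count scaling and without treated replicate 2. Of the 18 LCE genes, all near-silent in controls, LCE1E had 3, 14 and 10 treated counts and LCE1B 6, 11 and 13, while 6 were at 0 in every library. The desmocollins DSC1 and DSC2, relatives of DSC3, had 2, 8 and 4 and 1, 1 and 0 treated counts. FERMT2, the widely expressed kindlin, fell (log2 change -1.32) while FERMT3 rose (0.42). SERPINB2 (log2 change 3.44) and SERPINB7 (2.04) rose beside SERPINB5, and LRATD1, the relative of LRATD2, rose from 4 summed counts, all in control replicate 2 (edgeR adjusted p = 7.54e-15). Over all families the largest decreases were in DOCK2 (log2 change -1.68), PDE1C (-1.60) and PDE7B (-1.43).

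**Figure D4:**
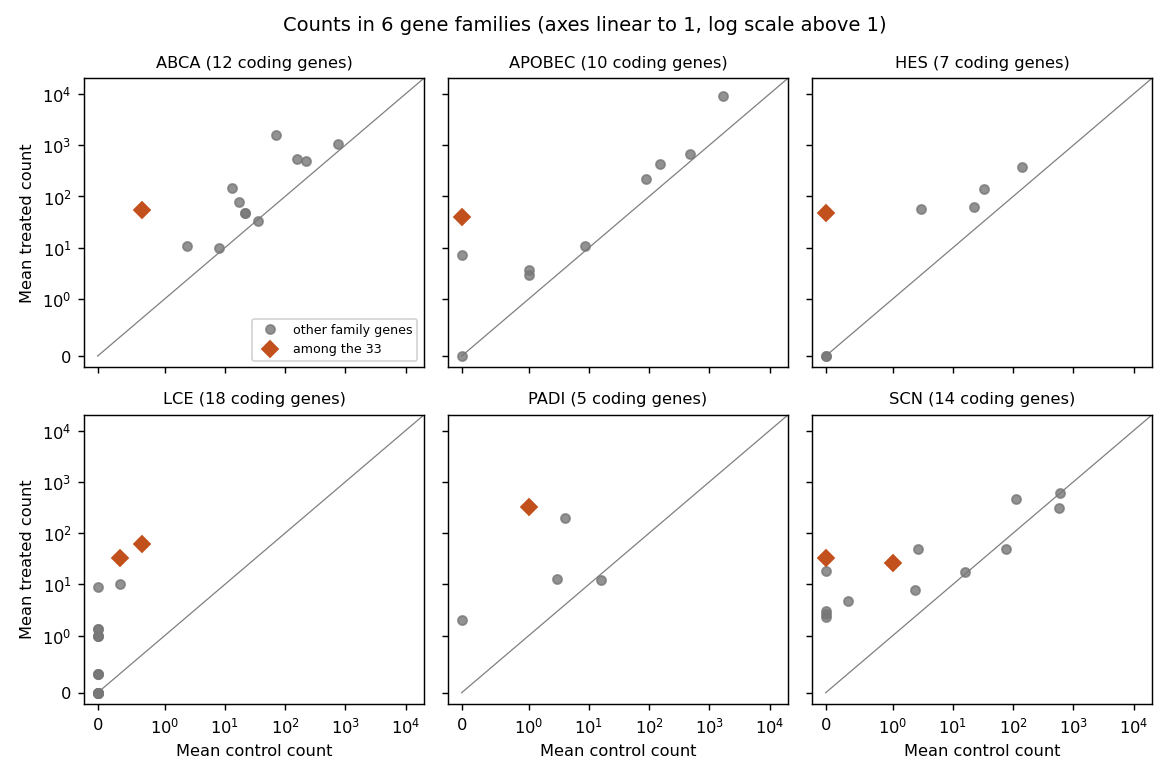
Mean treated count (vertical axis) against mean control count (horizontal axis), both linear to 1 and logarithmic above, in 6 families; orange diamonds are genes among the 33, grey points are their relatives, and the line marks equal counts. The 4 tested HES relatives lie above the line, and SCN genes lie on both sides of it.

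The 33 genes were set beside hand-written lists of p53 targets, NRF2 targets and secreted inflammatory factors. PADI4, HES2 and SERPINB5 stand in the p53 list of 108 genes, which is 9.09% of the 33 genes where the list makes up 0.544% of coding genes. The 33 genes were chosen for their rise, and the lists were written with earlier results of these libraries known. Neither the share of the 33 genes in a list nor the direction of a list is therefore independent evidence. Of 104 tested p53 targets outside the 33, 101 rose (97.1%, against 32.3% of all tested genes), and ASCC3, CPE and RGS12 were not called. GDF15, a stress cytokine (86, 89 and 64 to 7185, 6922 and 7133 counts), TNFRSF10C, a decoy receptor (16, 7 and 5 to 517, 524 and 513), and BTG2, an antiproliferative factor (83, 62 and 97 to 2623, 2745 and 2762), had the largest increases. Only 1 other gene of the list was near-silent in the controls, ALOX5, with 0, 0 and 1 against 1, 0 and 6 counts.

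None of the 33 genes stands in the NRF2 list. Of its 43 tested genes 32 rose (74.4%) and 6 fell (14.0%), against 32.3% and 31.2% of all tested genes. HMOX1, heme oxygenase 1, went from 388, 374 and 373 to 8793, 9299 and 9087 counts and AKR1B10, an aldo-keto reductase, from 9, 5 and 8 to 292, 394 and 312. ALDH3A1, an aldehyde dehydrogenase, came nearest to the rule, with no control count and 13, 19 and 25 treated counts. CBR3 (log2 change -0.76), ABCC4 (-0.68) and IDH1 (-0.40) fell most. CSF3 alone of the 33 stands in the secreted inflammatory list. Of 30 other tested genes in that list, 24 rose (80%) and 4 fell (13.3%), against the same shares of all tested genes. CSF2, the cytokine GM-CSF, had 0, 1 and 1 against 17, 15 and 24 counts, and the EGF receptor ligand AREG 6, 5 and 4 against 254, 223 and 245. The chemokine gene CXCL12 (log2 change -2.59), CCL2 (-1.43) and the NF-kB inhibitor gene NFKBIA (-0.64) fell most.

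By position the 33 genes were spread over 17 chromosomes, with at most 4 on one. Besides LCE1F with LCE1C and PDE4C with ENSG00000285188, no pair lay within 100 kb, and UNC13A lay 520 kb from PDE4C. No exon overlap with another gene was found for 22 of the 33 (66.7%). This share was 56.3% for all coding genes and 68.9% for the other near-silent ones. More than 50% of exon bases overlapped in 2 (6.06%), PDE4C and ENSG00000285188. That share was 5.34% for all coding genes and 11.5% for the other near-silent ones.

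The same count limits were met by 15 non-coding genes and pseudogenes, 8 of them lincRNA genes. H19, an imprinted RNA of fetal tissues, had no control count and 212, 175 and 222 treated counts. PINCR had 0, 1 and 0 against 154, 150 and 158 and PURPL 0, 2 and 0 against 82, 74 and 56, and both are RNAs described as p53-induced.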

How the data were processed

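The authors deposited 1 table of raw counts per Ensembl gene for 6 poly(A) RNA libraries, with exon coordinates, per the file header. STAR, SAMtools, Subread and featureCounts and the hg38 (GRCh38) build are named in the submitters' processing notes. Versions, annotation release and counting options are not given in the sources used here. Gene types came from GENCODE release 29, in which 58179 of 58299 identifiers were found. Libraries held 17150259 to 20193957 counts.

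The 33 genes, the lists and the tests were chosen with earlier results of these data known. Genes were filtered with filterByExpr (minimum count 10), which left 15575, scaled by TMM and fitted with glmQLFit of edgeR 4.0.16 in R 4.3.3. Calls are by glmQLFTest at a Benjamini-Hochberg adjusted p of 0.05. Fits were checked on simulated counts. The standard error is the log2 change over the root of the F statistic. Levels are TMM-scaled CPM. Ratios use summed counts with 95% exact binomial intervals, or a floor of 3 counts over the controls. Exon overlap used bedtools 2.31.1. Families held at most 40 coding genes. Other steps used Python 3.11.15.

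The naming rule gave every library's values for the 25 most abundant genes, those at the limits, in a list or within 100 kb of each other, and the 3 largest increases and decreases among called neighbours, relatives and list genes. Other genes were named after their values were seen, and roles were assigned by hand. Alternatives were other limits in the rule, RLE and total-count scaling, other filters, DESeq2 1.42.0, a replicate block, an adjusted p of 0.01, other distances and each library left out.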

Additional observations from a re-analysis of the deposited data

How the results depend on the processing

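The number of genes found depends on the limits. It was 33 as reported, 9 with no count allowed over the controls and 50 with up to 5. It was 106 with at least 10 counts in each treated library, 5 with at least 50, and 20 with the same limits on counts scaled to the mean library size, which raises control and lowers treated counts. With each library left out in turn it was 38 to 41 (with a limit of 2 where a control was left out), holding 31 to 33 of the 33 genes. It was 31 without PDE4C and ENSG00000285188, a choice made after seeing the data. The counts of called neighbours, relatives and list genes stayed within 1.5 times of those reported under every alternative run. With total-count scaling the median over all genes stood at 0.15 on the log2 scale in place of 0.02, and 63.8% of calls were higher in place of 50.8%. With it 22 neighbours rose and 8 fell, and 64 relatives rose and 34 fell. Same-numbered libraries did not deviate together (correlations -0.02, -0.01 and -0.01). The replicate block gave 9653 called genes against 9893, 26 neighbours and 102 relatives. Among single genes named, calls were lost for APOBEC3B, SCN8A, KRT18, CSF1R and CLDN4 under the alternatives given beside them, and no direction turned under any alternative run. Leaving out 1 control moved the log2 changes of PHYHIPL, ESPN, SCN3B, TNFRSF10C (5.53 to 6.15 without control replicate 1) and LRATD1 (5.32 to 9.02 without control replicate 2 and 4.73 without control replicate 3) by over 1.5 times. Counts of 0 to 3 in the controls limit every ratio given.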
